A study of Mus musculus with 6 samples.

Results

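The clustered protocadherins are 58 genes in 3 adjacent arrays on mouse chromosome 18, named alpha, beta and gamma. They were chosen by gene symbol, as every gene of the table whose name begins with Pcdha, Pcdhb or Pcdhg followed by an isoform name, and they make up 58 of the 34745 genes listed. The alpha cluster holds 14 of them, the beta cluster 22 and the gamma cluster 22. The study sequenced RNA from the medial ganglionic eminence (MGE) at embryonic day 12.5, a part of the ventral telencephalon from which many cortical interneurons arise. It compared 3 wild type littermate controls with 3 Sp9 null mutants (labelled Sp9-KO), all on a mixed C57BL/6J, 129S6 and CD1 background. Sp9 encodes a zinc finger protein that regulates transcription in the ganglionic eminences. The sources used here do not say whether each library came from a separate embryo or from pooled tissue, so the p-values measure the spread between these libraries, which may be technical.

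Clustered protocadherins are cadherin-family adhesion proteins of the neuronal surface that bind themselves on facing membranes. Neurons express different combinations of them, which is known for letting a neurite tell itself from its neighbours, and the gamma genes are also known for supporting interneuron survival. In the alpha and gamma arrays each gene has its own long variable exon, with its own promoter, spliced to constant exons common to the array that encode the cytoplasmic end. The beta genes each encode a whole protein in a single variable exon. Most alpha, beta and gamma isoforms are chosen stochastically in single neurons with the help of CTCF, cohesin and DNA methylation, whereas the C-type isoforms at the ends of the alpha and gamma arrays are regulated differently and more widely expressed.

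The libraries held between 6826447 and 10979280 counts, and CPM below is a gene's count per 1000000 counts of that total. In wild type replicates 1, 2 and 3 Sp9 was measured at 203.3, 247.4 and 188.6 CPM, and the null libraries held 13.04, 10.57 and 12.51 CPM, a log2 fold change of -4.13 (SE 0.14, edgeR quasi-likelihood adjusted p = 2.54e-05). Nkx2-1, Lhx6 and Dlx2, known markers of the MGE and its neurons, were present in every library. Nkx2-1 ranged from 799.7 to 944.7 CPM. Lhx6 stood at 481.7 to 580.1 CPM in wild type and 336.3 to 406.6 CPM in null libraries, and Dlx2 at 406.1 to 482.5 and 521.8 to 649.4 CPM, neither overlapping. Over all genes tested, the null libraries lay all below wild type in 8.06% and all above in 4.95%. Without the replicate number as a block in the model neither was called (edgeR adjusted p = 0.339 and 0.635), beside 0.147% of all genes. With it both were (edgeR adjusted p = 6.01e-06 and 3.91e-05), beside 4% of all genes. Replicate 2 of both genotypes stood apart. Markers of cortical excitatory neurons summed to 1.741 and 1.731 CPM there, against 23.18 to 59.49 CPM elsewhere, and hypothalamic markers to 1.099 and 0.911 CPM, against 4.929 to 9.438 CPM.

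The 3 arrays lay end to end on the plus strand between 36930184 and 37841873 of chromosome 18 (GRCm38), the alpha array at 36930184 to 37187661, the beta array at 37264938 to 37524479 and the gamma array at 37661793 to 37841873. In the GENCODE M21 annotation all 14 alpha genes shared 3 exons of 59, 89 and 2712 bases, at 37156155 to 37156213, 37159265 to 37159353 and 37184946 to 37187657. All 22 gamma genes shared 3 others of 59, 89 and 1968 bases, at 37825021 to 37825079, 37833265 to 37833353 and 37839903 to 37841870. The matching lengths of the shorter constant exons are a feature that both arrays have in common. Bases shared with other members made up a median of 53.4% of an alpha gene's exons and 44.7% of a gamma gene's. Among the beta genes only Pcdhb21 and Pcdhb22 overlapped, over 9.67% and 6.88% of their exons.

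**Figure D1:**
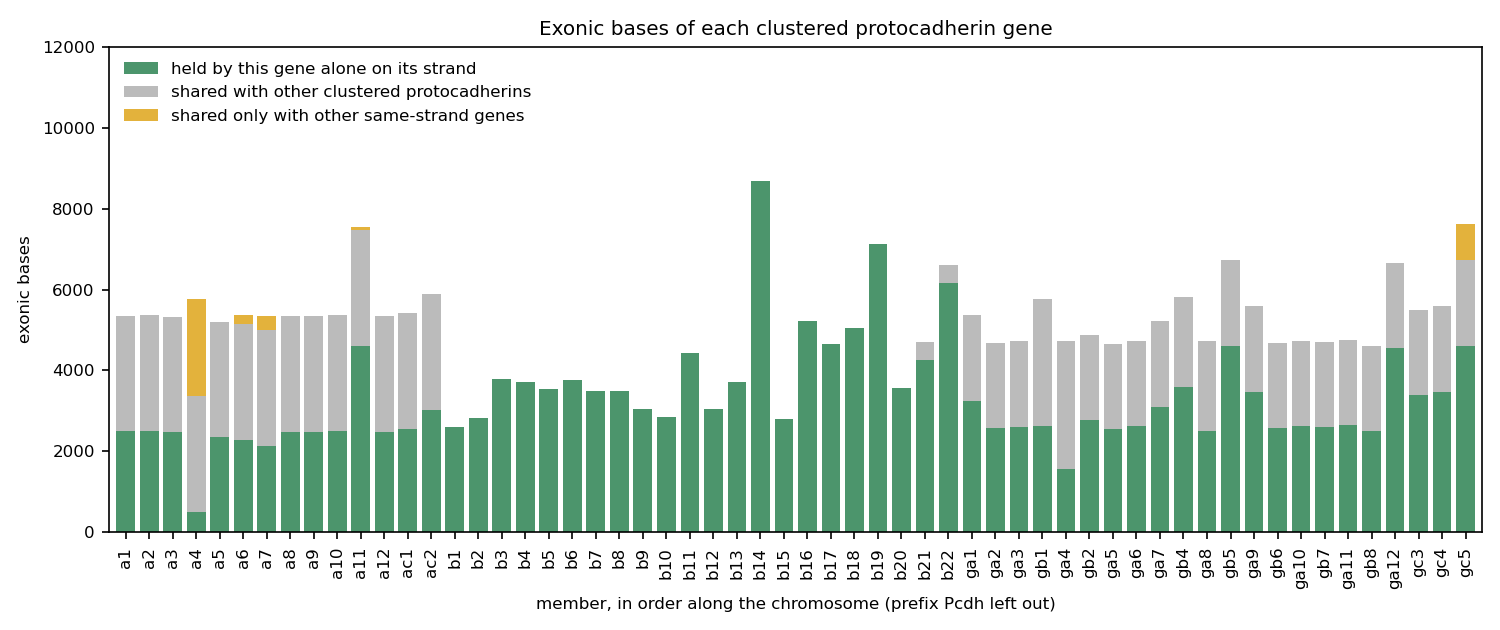
Exonic bases of each of the 58 genes (y axis, bases) in their order along the chromosome (x axis), split into bases held by that gene alone on its strand, bases shared with other clustered protocadherins, and bases shared only with other same-strand genes. Every alpha and gamma bar has a shared section, and in the beta cluster only the bars of Pcdhb21 and Pcdhb22 do.

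The shared exons limit what a count can stand for. Gm42416, Gm37013, Gm37388 and Gm38182 are annotated transcripts whose exons all lie inside exons of other same-strand genes, and each had 0 counts in all 6 libraries. Reads in shared exons were therefore not credited to every gene that contains them, and an alpha or gamma count can be read as coming mainly from bases that the gene does not share. The deposited FPKM values (fragments per kilobase, scaled to the library total) were made with longer lengths, in which overlapping exon records are added up. That length equalled the summed exon records within 0.001 for 56 of the 57 members where it could be computed, and it exceeded the exon length by over 1% for 21 of them, reaching 2.60 times that length. Levels are therefore also given as CPM per kilobase of exon that no other same-strand gene shares, called CPM per unshared kb below.

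A second limit is strand, which the sources used here do not give. Exons of 13 members lie under exons of antisense genes, 4 in the alpha, 1 in the beta and 8 in the gamma cluster. Pcdhgc3 overlapped BC037039, which had 3740 counts of its own, over 1559 bases. Gm26672, with 1156 counts, covered all 2613 unshared bases of Pcdhga10, which was nevertheless given 194 counts, and part of Pcdhga11 and Pcdhgb7. The unshared length used here sets aside same-strand genes only. Bases free of genes on both strands number 1821 in place of 3380 in Pcdhgc3, 1256 in place of 2637 in Pcdhga11 and 1821 in place of 2594 in Pcdhgb7. Levels and ranks per unshared kb of the overlapped members depend on this choice. Sequence copies add a smaller doubt. Of the 50-base windows in a gene's unshared exons, a median of 13.99% in the alpha cluster, 3.48% in the beta cluster and 0.99% in the gamma cluster occurred again in other genes, reaching 29.2% in Pcdha6. Reads in such windows may have been placed on another member.

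The clustered protocadherins were scarce transcripts, with 15481 counts over all 6 libraries, or 0.0190% to 0.0322% of a library. The gamma cluster took 11779 of these counts, the beta cluster 2972 and the alpha cluster 730. As a share of the clustered counts, gamma took 77.1% ± 3.42 in wild type and 76.0% ± 6.55 in null libraries, beta 18.02% ± 1.97 and 19.8% ± 4.94, and alpha 4.89% ± 1.54 and 4.21% ± 1.66 (SD, n = 3 each). The order gamma, beta, alpha held in each of the 6 libraries. Every gamma gene was counted in all libraries, as were 18 of 22 beta genes and 8 of 14 alpha genes.

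Pcdhgc3, a C-type gamma isoform, was the most abundant member by a wide margin. Its levels were 28.6, 23.1 and 30.4 CPM per unshared kb in wild type replicates 1, 2 and 3 and 28.8, 21.4 and 28.8 in null replicates 1, 2 and 3. These levels overlapped between genotypes and lay above those of all other members in each library. The gene took 41.7% to 45.7% of all gamma counts, and without it the other 21 gamma genes still held 40.4% to 45.2% of the clustered counts. Whether its 5168 counts include reads from the opposite strand in BC037039, or lack reads from the overlap, is not known and was not tested.

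The other C-type isoforms, which lie at the 3' ends of their arrays, did not share this level. Pcdhgc4 reached a mean of 1.99 CPM per unshared kb and ranked 7th of the 58, and Pcdhgc5 reached 0.72 and ranked 27th. Pcdhac2 was the highest alpha gene, at 2.11, 0.938 and 1.998 CPM per unshared kb in wild type replicates and 1.45, 0.632 and 1.61 in null replicates. Its neighbour Pcdhac1 stood lower, between 0.249 and 0.746 over the 6 libraries. Together the 5 C-type genes took 36.1% to 42.5% of the clustered counts, most of them from Pcdhgc3.

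Behind Pcdhgc3 came gamma isoforms of the A and B subfamilies, which are named by sequence similarity of their variable exons. Pcdhga11 averaged 5.62 CPM per unshared kb over all libraries, Pcdhgb6 4.49, Pcdhga4 3.44 and Pcdhgb7 3.17. Neighbours in this order overlapped: Pcdhga11 ranged from 4.26 to 6.68 and Pcdhgb6 from 3.09 to 5.95 over the 6 libraries. The position of Pcdhga4 depended on the length used, 4th per unshared kb and 10th by FPKM, because only 1570 of its 4727 exonic bases are unshared. The 12 A-type gamma genes together took 21.3% to 27.2% of the clustered counts and the 7 B-type genes 13.5% to 16.1%. The lowest gamma gene by total count was Pcdhgb8, with 115.

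Levels in the beta cluster were lower and spread over more genes. Pcdhb17 led, with 1.37, 1.04 and 1.88 CPM per unshared kb in wild type and 2.26, 0.860 and 2.41 in null replicates, which overlapped. It held 12.2% to 17.0% of the beta counts. Pcdhb20 followed at a mean of 1.07 and Pcdhb7 at 1.014. Pcdhb1, the beta gene nearest the alpha array, had 0 counts in all 6 libraries, so its level stayed under 3 counts per library, or 0.273 to 0.440 CPM (counting error only).

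Alpha isoforms other than Pcdhac2 had few counts, between 1 and 76 over all 6 libraries together. Pcdha4 had 1 count, Pcdha1 had 2 and Pcdha8 had 3. Pcdha4 has only 494 unshared bases, against 2489 in Pcdha1 and 2478 in Pcdha8. The 12 alternate alpha genes, a name for those that are not C-type, together had 414 counts and the 2 C-type genes 316. The most abundant alternate isoform per length was Pcdha3, with 68 counts and a mean of 0.494 CPM per unshared kb.

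Level was also set against position in each array. Across the genes of a cluster, Spearman's correlation of order along the chromosome with mean CPM per unshared kb was 0.341 in alpha (14 genes), 0.483 in beta (22 genes) and 0.091 in gamma (22 genes). By FPKM the values were 0.468, 0.434 and 0.121. The 11 beta genes nearest the alpha array had a median of 0.459 CPM per unshared kb and the 11 nearest the gamma array 0.702. In gamma the medians of the first and last 11 genes were 1.76 and 1.65. The genes share their libraries and, in part, their sequence, and these values are descriptions.

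**Figure D2:**
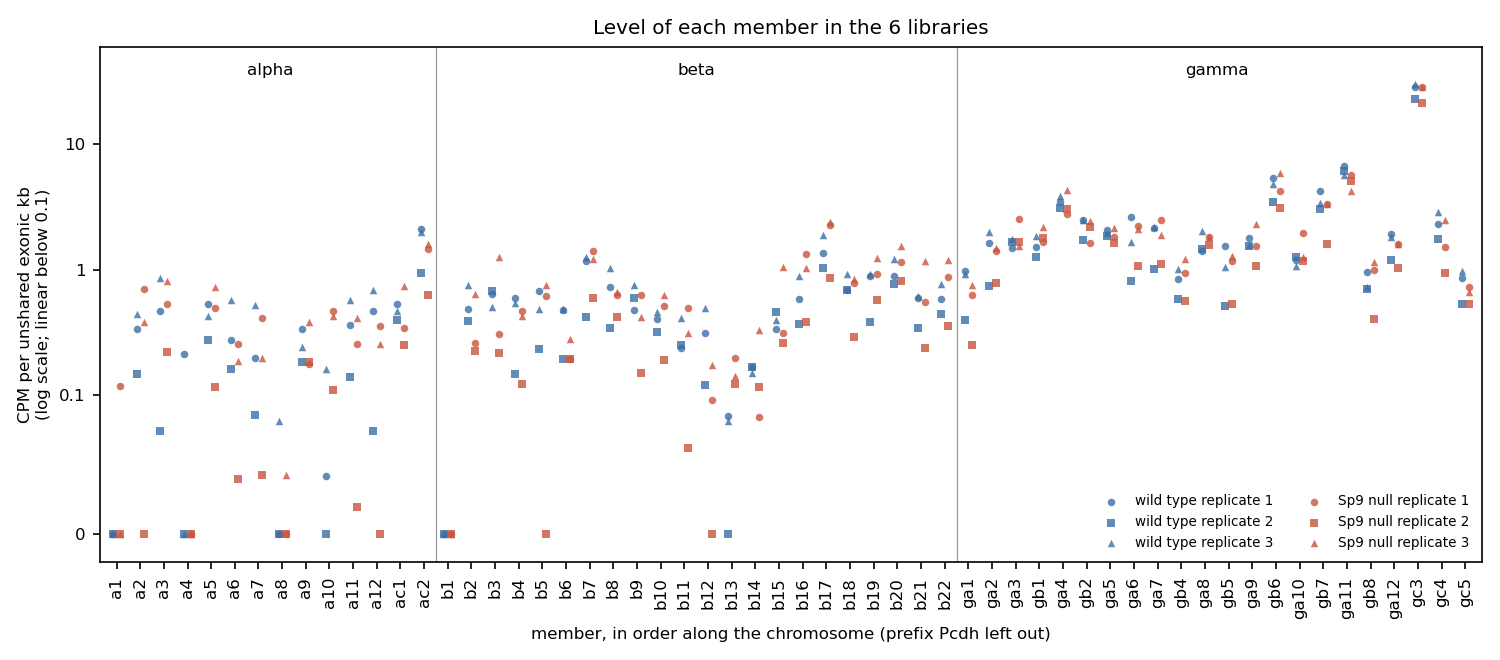
Level of each member in CPM per unshared exonic kb (y axis, log scale, linear below 0.1) in order along the chromosome (x axis), 1 point per library, with blue for wild type, red for Sp9 null and the symbol for the replicate number. Pcdhgc3 stands at 21.4 to 30.4 in all 6 libraries, many alpha genes lie below 1, and the points of both genotypes overlap for all members but Pcdhga11 and Pcdhb13.

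The comparison of genotypes asks whether the RNA of these genes in the MGE samples was at other levels without Sp9. None of the 58 was called. Of them, 46 had enough counts to be tested, 5 alpha, 19 beta and 22 gamma. At an adjusted p under 0.05, edgeR called 0 of the 46, against 22 of all 14929 genes tested (0.147%). With the replicate number as a block in the model it also called 0 of 46, against 597 of 14929 genes (4%), and DESeq2 called 0 of the 54 members to which it gave an adjusted p, against 90 of 18605 genes (0.484%). The number of members with an unadjusted p under 0.05 was 0 in edgeR, 1 in edgeR with the block and 0 in DESeq2. Over all genes these shares were 5.91%, 17.2% and 2.9%. The 12 untested members were 9 alpha genes and Pcdhb1, Pcdhb12 and Pcdhb13.

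In 1 of the 46 tested members, Pcdhga11, all null libraries lay below all wild type libraries, and in 0 did they lie above. Over all genes tested these shares were 8.06% and 4.95%. Among the 12 untested members, the null libraries of Pcdhb13 lay above wild type, with 5 counts each against 3, 0 and 3, near the limit of detection. Pcdha10, also untested in edgeR, had 1, 0 and 4 counts in wild type and 8, 3 and 10 in null replicates, and its log2 difference in DESeq2 was 2.32 (SE 1.24, adjusted p = 1). Pcdhga11 was measured at 17.6, 16.2 and 15.12 CPM in wild type libraries 1, 2 and 3, and at 15.09, 13.6 and 11.2 CPM in the mutants. The lowest wild type and the highest null value nearly touched. On the log2 scale the difference was -0.28 (SE 0.15, 95% interval -0.62 to 0.07, edgeR adjusted p = 0.897).

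Summed over all members, including those too low to test, the clusters gave overlapping levels in both genotypes. The alpha genes summed to 15.9, 6.87 and 19.5 CPM in wild type libraries 1, 2 and 3, and to 14.9, 4.37 and 17.0 CPM in the mutants. The beta genes summed to 52.6, 35.4 and 63.6 CPM in wild type and to 62.0, 27.3 and 77.4 CPM in null libraries. The gamma genes summed to 231.6, 174.2 and 232.1 CPM and to 218.3, 157.9 and 227.2 CPM. In each array replicate 2 was the lowest library of its genotype. The null mean was 0.858 times the wild type mean in alpha, 1.10 times in beta and 0.946 times in gamma, and each difference was smaller than the SD of either genotype, which includes replicate 2. Between libraries of the same number, the null sum was the lower in 3 of 3 for alpha and for gamma and in 1 of 3 for beta, a difference that was not tested.

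**Figure D3:**
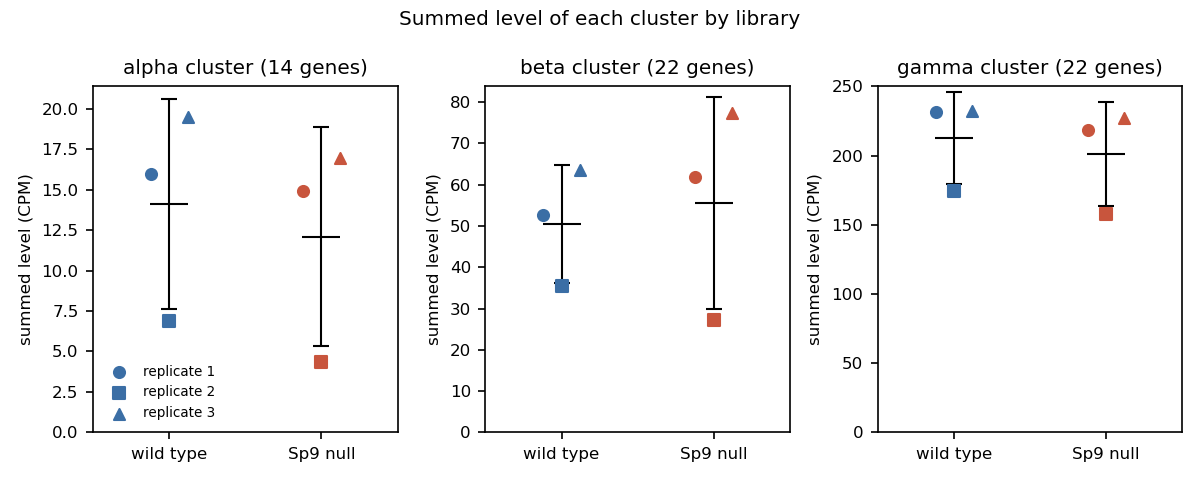
Summed level of each cluster in CPM (y axis, from 0) by genotype (x axis), 1 point per library with the symbol for the replicate number, and a black line and bars for the mean ± SD of 3 libraries. Wild type and null points overlap in each panel, and the square of replicate 2 is the lowest point of each group.

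Among tested members the median log2 fold change of null over wild type was -0.04 in alpha, 0.16 in beta and -0.03 in gamma, beside -0.005 over all genes tested. In alpha 2 of the 5 tested genes had a fold change above 0, in beta 11 of 19 and in gamma 9 of 22. Leaving out 1 library moved the medians across 0 in each array, between -0.65 and 0.44 in alpha, -0.43 and 0.49 in beta, and -0.20 and 0.12 in gamma. The alpha and gamma medians were above 0 without null replicate 2, wild type replicate 1 or wild type replicate 3, and the beta median was below 0 without null replicate 3.

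The precision differed between genes. The median standard error of a log2 fold change was 0.63 in alpha, 0.49 in beta and 0.28 in gamma, and with the replicate block 0.45, 0.41 and 0.24. The standard error without the block was lowest for Pcdhgc3, at 0.14, and highest in the beta cluster, at 0.97. For Pcdhgc3 the log2 fold change was -0.04, with a 95% interval of -0.36 to 0.29, from 96.6, 78.0 and 102.7 CPM in wild type and 97.4, 72.2 and 97.5 CPM in null replicates. The interval lay within a 2-fold change in either direction for 15 of the 22 tested gamma genes, 0 of 19 beta genes and 0 of 5 alpha genes. With the replicate block these numbers were 21, 9 and 2. For the remaining genes the interval did not exclude a 2-fold difference.

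Each C-type gene had a lower mean in the null libraries, by little for Pcdhgc3 (92.4 CPM in wild type, 89.0 in null) and Pcdhac1, and none passed the test. Pcdhgc4 stood at 8.07, 6.14 and 9.98 CPM in wild type and at 5.27, 3.28 and 8.70 CPM in null replicates, lower in the null library of each number while the groups overlapped. The log2 difference was -0.47 (SE 0.35, edgeR adjusted p = 0.909), and -0.51 with the block (SE 0.20, edgeR adjusted p = 0.170). This was the member with an unadjusted p under 0.05 in the blocked model. The values for Pcdhgc5, Pcdhac2 and Pcdhac1 were -0.29 (SE 0.30), -0.44 (SE 0.42) and -0.04 (SE 0.48).

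In the beta cluster the fold changes farthest from 0 belonged to Pcdhb6, Pcdhb9 and Pcdhb16. Pcdhb6 had 17, 8 and 18 counts in wild type and 5, 8 and 10 in null replicates, a log2 fold change of -0.73 (SE 0.47). Pcdhb9 had 14, 20 and 23 counts against 13, 5 and 12, a log2 fold change of -0.68 (SE 0.49). Pcdhb16 had 29, 21 and 46 counts against 48, 22 and 51, a log2 fold change of 0.58 (SE 0.49). All 3 rest on few counts and have edgeR adjusted p-values of 0.897, 0.904 and 0.925.

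Among the tested alpha and gamma genes, those with fold changes farthest from 0 were not called either. Pcdha11 had 16, 7 and 26 counts in wild type and 8, 1 and 18 in null replicates, a log2 fold change of -0.65 (SE 0.83). Of its 7535 exonic bases, 3338 lie under antisense exons of Gm10544 and Gm10545. Pcdhga1 had 30, 14 and 30 counts against 14, 9 and 23, a log2 fold change of -0.48 (SE 0.49). Pcdhgb7 stood at -0.36 (SE 0.29) and Pcdha3 at 0.18 (SE 0.77).

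**Figure D4:**
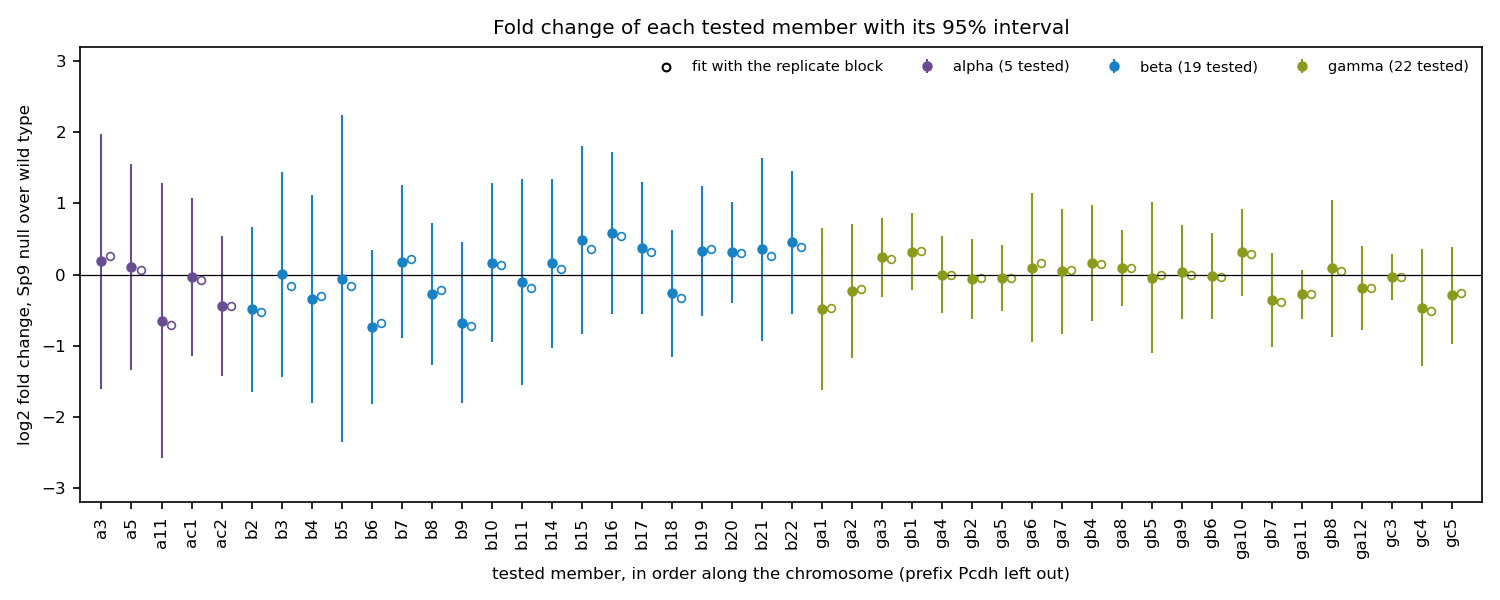
Log2 fold change of Sp9 null over wild type (y axis) for the 46 tested members in order along the chromosome (x axis), with filled points and 95% interval bars from the model with genotype alone and open points from the model with the replicate block. Every bar crosses 0, and the bars are shorter in gamma than in most of alpha and beta.

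The larger contrast within these data lay between libraries of 1 genotype. Summed CPM in replicate 2 was 0.388 times the mean of replicates 1 and 3 in wild type and 0.274 times in null libraries for alpha. For beta it was 0.608 and 0.392 times, and for gamma 0.751 and 0.709 times. The alternate alpha genes were at 0.297 and 0.184 times and the C-type alpha genes at 0.512 and 0.423 times, whereas the C-type gamma genes were at 0.767 and 0.724 times. Of all 58 members, 40 were lowest in replicate 2 in both genotypes: 10 of 14 alpha, 15 of 22 beta and 15 of 22 gamma genes. Among the 46 tested the share was 71.7%, against 28.4% of all genes tested.

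Cell type markers moved between the same libraries. The 10 markers of postmitotic neurons, the cells in which clustered protocadherins are mostly expressed, summed to 3966, 2865 and 3902 CPM in wild type libraries 1, 2 and 3, and to 3617, 2388 and 4013 CPM in the mutants. Replicate 2 was thus at 0.728 and 0.626 times the others. The 10 markers of radial glia, the dividing progenitors, were as a sum at 1.24 and 1.32 times. Among them Pax6 went the other way, at 2.02 CPM in wild type replicate 2 against 3.99 and 6.15. In null replicate 2 Pax6 was at 2.55 against 4.98 and 6.79 CPM. Fabp7 was highest in replicate 2 in wild type, but in null replicate 2, at 152.8 CPM, it lay between 200.7 and 149.2 CPM. Slc1a3 in replicate 2 lay between replicates 1 and 3 in both genotypes. The cortical excitatory list was at 0.0663 and 0.0371 times and the hypothalamic list at 0.206 and 0.0999 times. The erythroid list was at 1.42 and 1.48 times, the endothelial and pericyte list at 1.15 and 1.07 times, and the microglial list at 1.04 and 0.845 times. The choroid plexus list stayed at or below 2.12 CPM in all libraries. Microglial markers summed to 52.6 to 56.3 CPM in wild type and 24.3 to 34.6 CPM in null libraries, and 6 of the 7 tested were called lower with the block and 0 without it. Each other list had at most 2 genes called with the block and 0 without it. Over all genes tested, 4% were called with the block and 0.147% without it. All 8 cortical and all 6 hypothalamic genes were counted in some library, several of them with few counts. Outside replicate 2, Tbr1 and Slc17a6 carried most of the cortical sum. The cortical marker Tbr1 had 7 and 1 counts in replicate 2, against 141 to 395 in the other libraries. Slc17a6 had 1 and 5 there, against 52 to 111. The cortical Eomes had 2 and 3 counts there, against 7 to 23. Of the hypothalamic genes, Otp had 0 and 1 against 19 to 34, Hmx3 0 and 3 against 13 to 28, and Sim1 4 and 1 against 8 to 19. Slc17a7 and the hypothalamic Pomc did not show this drop. Slc17a7 had 4 and 7 counts against 3 to 8, and Pomc 7 and 4 against 5 to 9. The hypothalamic Rax and Nkx2-4 had at most 1 count in any library. The part of these cells in the protocadherin levels was not tested, and in bulk tissue fewer cells of a type and less RNA per cell cannot be told apart.

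**Figure D5:**
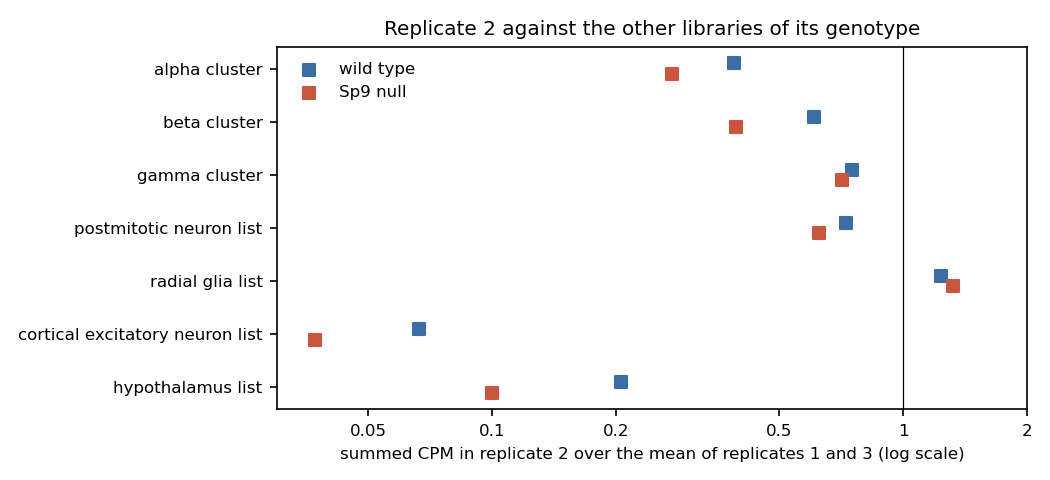
Summed CPM in replicate 2 divided by the mean of replicates 1 and 3 (x axis, log scale) for the 3 protocadherin clusters and 4 lists of cell type markers (y axis), with blue for wild type and red for Sp9 null. The 3 clusters lie at 0.274 to 0.751, the radial glia list lies above 1, and the cortical excitatory list lies below 0.1.

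With both replicates 2 left out, an alternative chosen after seeing the data, 0 members were called in either direction. The null mean of the summed level was then 0.901 times the wild type mean in alpha, 1.20 times in beta and 0.961 times in gamma. In replicates 1 and 3 the cortical excitatory list summed to 23.18 and 29.34 CPM in wild type and 33.84 and 59.49 CPM in null libraries. The hypothalamic list summed to 4.929 and 5.747 CPM and to 8.789 and 9.438 CPM. The postmitotic neuron list summed to 3966 and 3902 CPM and to 3617 and 4013 CPM. The part of these differences in the ratios was not tested.

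Genes known to control the choice of isoform were compared in the same way. Of the 20 listed regulators, which cover CTCF, the cohesin complex with its loader and releasing factors, DNA and histone methylation and the repressor Rest, all 20 were tested and edgeR called 0 in either direction. The count at an unadjusted p under 0.05 was 0 without and 2 with the block, beside 5.91% and 17.2% of all genes, and DESeq2 called 0. Ctcf, whose protein binds the isoform promoters, stood at 266.0 CPM ± 20.9 in wild type and 270.2 ± 16.2 in null libraries (SD, n = 3 each). Its log2 fold change was 0.04 (SE 0.09). The cohesin subunit Rad21 was at 0.03 (SE 0.10), Smchd1, which silences clustered protocadherins among other loci, at 0.04 (SE 0.12), Rest at 0.13 (SE 0.12), and Dnmt3b, which methylates their promoters, at 0.11 (SE 0.15).

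With the replicate block edgeR called 1 of the 20 regulators, Smc3, a core cohesin subunit, beside 4% of all genes under that model. It stood at 282.0, 319.1 and 286.3 CPM in wild type libraries 1, 2 and 3, and at 306.3, 398.0 and 330.1 CPM in the mutants. The null library was higher in each of the 3 numbers, while the groups overlapped. The log2 difference was 0.24 (SE 0.06, edgeR with the block, adjusted p = 0.0143). The call was lost without the pair numbered 2 (adjusted p = 0.398) or 3 (adjusted p = 0.244), and in DESeq2 with the block (adjusted p = 0.157). In edgeR without the block the adjusted p was 0.878.

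Of the 25 genes listed for signalling and processing of the proteins, 24 were tested and edgeR called 0 with or without the block. The numbers at an unadjusted p under 0.05 were 4 with and 1 without it, beside 17.2% and 5.91% of all genes, and DESeq2 called 0. Wasf1, an actin regulator of the WAVE complex that binds the cytoplasmic ends of several protocadherins, had a log2 fold change of 0.06 (SE 0.08). Ptk2, the focal adhesion kinase that gamma and alpha proteins inhibit, was at -0.06 (SE 0.07). Its relative Ptk2b, at 0.752 and 0.748 CPM, was too low to be tested. Adam10, the protease that sheds the extracellular part, was at 0.16 (SE 0.08).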

How the data were processed

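RNA-seq of 3 wild type and 3 Sp9 null MGE samples was analysed from 1 deposited table. It gives, per the file headers, read counts and FPKM per gene and library. TopHat, Cufflinks 2.1.1 and build GRCm38.p4 appear in the submitters' processing notes. Neither the counting program nor the strand is given in the sources used here. The number of unused sample columns was 0. The deposited FPKM values equal the count divided by a fixed length and the library total.

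The authors' gene identifiers were matched to GENCODE M21 exons and all 58 had the same start and end there. Names are those of the RefSeq gene with the nearest start (at most 482 bases away), which differ from the listed symbols at 2 identifiers: 1 listed as Pcdha11 lies at Pcdha10, and 1 listed as Pcdhga8 lies at Pcdhgc4. Promoter and protein sequences of these genes were not used here. The floor of 3 counts covers counting error only, and the 95% intervals of fold changes include the spread between libraries.

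Counts were tested two-sided by quasi-likelihood in edgeR 4.0.16 under R 4.3.3 (TMM scaling, default expression filter, robust dispersions, genotype as the only term), with Benjamini-Hochberg adjustment over all 14929 genes that passed, and called at an adjusted p under 0.05. DESeq2 1.42.0, other scalings and filters, the replicate block and leaving out libraries were alternatives. Cluster sums and shares were not tested. An exact permutation test of 3 against 3 libraries cannot go below p = 0.1.

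Deviations from the genotype mean correlated by 0.336, 0.729 and 0.535 between libraries with the same number 1, 2 and 3, all over 0.1. The main model had genotype alone. The numbers were treated as pairs only in the alternative fits with the replicate block. This pairing comes from the data, which gave like values when 1 and 3 were crossed (0.354 and 0.23). The biological coefficient of variation was 0.171 without the block and 0.0676 with it.

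The members and lists were chosen with earlier results of these data known. Members are named if they were called, among the 3 highest by FPKM or the 3 farthest from 0 in fold change of their cluster, C-type, or the lowest by count in their cluster. Regulators and partners are named if called, together with 10 chosen by function, of which 1 is not reported here. Pcdha1, Pcdha6, Pcdha8, Pcdha10, Pcdhga4, Pcdhga10, Pcdhb12, Pcdhb13, Pcdhb21 and Pcdhb22 are named after their values were seen. So are Nkx2-1, Lhx6, Dlx2, Tbr1, Slc17a6, Slc17a7, Pomc and Pax6.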

Additional observations from a re-analysis of the deposited data

How the results depend on the processing

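No clustered protocadherin was called under any of the 17 alternatives. The replicate block moved the calls over all genes from 7 higher and 15 lower to 332 and 265. DESeq2 gave 38 and 52 (86 and 69 with the block), no filter on low counts 21 and 44, and leaving out libraries or pairs 0 to 667 and 2 to 526. With the replicate block the number of partner and regulator genes called higher rose from 0 to 1. It ranged from 0 to 4 over the leave-outs, with 4 without pair 1 in the paired model. That same setting gave the 667 higher and 526 lower over all genes. The block changed no other call among the named protocadherins, partners and regulators. By summed FPKM, without the member with the highest count of each cluster, and per unshared exon length (chosen after seeing the data), the beta share was 25.9%, 25.1% and 13.5% in wild type and 27.5%, 27.0% and 14.5% in null libraries. The gamma share was 69.4%, 69.9% and 80.8% in wild type, and by summed FPKM and without the highest member 68.3% and 68.5% in null libraries.

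Some fold changes changed sign when libraries were left out. Their lowest and highest log2 values were -0.34 and 0.98 for Pcdha3, -0.65 and 0.29 for Pcdhac1, -0.18 and 0.49 for Pcdhb7, -0.30 and 0.19 for Pcdhgb6, -0.32 and 0.45 for Pcdhgb8, -0.14 and 0.089 for Pcdhgc3, -0.0125 and 0.11 for Ctcf, -0.058 and 0.10 for Rad21, -0.10 and 0.15 for Smchd1 and -0.0011 and 0.11 for Wasf1. With both replicates 2 left out, also chosen after seeing the data, Pcdhac1 was at 0.19, Pcdhgb6 at 0.039, Rad21 at -0.0116 and Smchd1 at -0.061. Without changing sign, the lowest and highest were -1.54 and -0.037 for Pcdha11, -0.92 and -0.17 for Pcdhgc4, -0.73 and -0.11 for Pcdhac2, -0.61 and -0.078 for Pcdhgb7, -0.83 and -0.11 for Pcdhga1, -1.28 and -0.25 for Pcdhb9 and 0.19 and 0.97 for Pcdhb16. The causes were not tested.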
